A study of Bos taurus with 6 samples.

Results

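Calcineurin and protein phosphatase 1 (PP1) are serine/threonine phosphatases, enzymes that remove phosphate groups from proteins. The genes described here are the 5 calcineurin subunits PPP3CA, PPP3CB, PPP3CC, PPP3R1 and PPP3R2 and the 3 PP1 catalytic subunits PPP1CA, PPP1CB and PPP1CC, chosen by symbol. Of these 8 symbols, 7 had a row among the 47249 genes of the table of gene levels, 4 for calcineurin and 3 for PP1. PPP3R2 had no row under its symbol and was not analysed here.

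Calcineurin is switched on by calcium through calmodulin and pairs a catalytic A subunit (PPP3CA, PPP3CB or PPP3CC) with a calcium-binding B subunit (PPP3R1 or PPP3R2). PPP3CC and PPP3R2 form the calcineurin of spermatids and sperm, which sperm need for a flexible midpiece and for fertilization, while PPP3CA and PPP3CB are the abundant A subunits of nerve tissue. The PP1 catalytic subunits act in nearly every cell, where regulatory subunits decide on the target, and a splice form of PPP1CC called PP1 gamma-2 is the main PP1 of sperm and takes part in motility.

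RNA was sequenced from testes of Wandong cattle (Bos taurus), with 3 libraries of immature calves aged 3 months and 3 of mature bulls aged 3 years, 1 library per animal. The animals were untreated and healthy, and the RNA was whole-tissue RNA depleted of ribosomal RNA. Levels are FPKM, the fragments counted for each kilobase of a transcript relative to the fragments sequenced, and can be compared between genes because they are scaled by length. FPKM sums ranged from 587066 to 1098715 per library, and the tables give no counts, so the number of fragments behind a single value is unknown.

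The library labelled calf 3 stood apart from calf 1 and calf 2. The summed level of 16 markers of oligodendrocytes, astrocytes and neurons was 14619 FPKM in calf 3, against 18.2 to 23.2 FPKM in calf 1 and calf 2 and 14.5 to 22.9 FPKM in the bulls, and all 16 were highest in calf 3. Markers of Sertoli cells, the supporting cells of the tubules, summed to 14.8 FPKM in calf 3 against 1786 and 1456 FPKM in calf 1 and calf 2, and those of the steroid-producing Leydig cells to 0.466 FPKM against 1395 and 1132 FPKM. Of the 6 Sertoli markers, 5 were below 1 FPKM in calf 3, with FSHR, WT1 and GATA4 listed at 0. The exception was SOX9, at 13.7 FPKM in calf 3, which made up most of that sum. It was at 21.9 and 25.6 FPKM in calf 1 and calf 2 and at 9.99 to 10.8 FPKM in the bulls. Values are therefore given with and without this library, and the part of these cell markers in any result was not tested.

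Markers of the later cells that make sperm also differed between the ages. The summed level of 12 spermatid markers was 2.31 to 6.43 FPKM in the calves and 13945 to 15741 FPKM in the bulls, and that of 6 spermatocyte markers was 3.37 to 23.2 FPKM against 160 to 193 FPKM. For 5 markers of spermatogonia the sums overlapped, at 82.8 to 112 FPKM in the calves and 95.0 to 104 FPKM in the bulls. Of these, ZBTB16, KIT and GFRA1 were lower in every bull than in every calf, DMRT1 was higher and ID4 overlapped. The lowest calf sum, 82.8 FPKM, was that of calf 3, and its make-up differed from that of the other calves. DMRT1 was at 0.0938 FPKM in calf 3, against 44.9 and 68.9 FPKM in calf 1 and calf 2. ID4 was highest in calf 3, at 50.2 FPKM, and made up most of the sum of that library. Sertoli markers summed to 117 to 148 FPKM in the bulls, against 1786 and 1456 FPKM in calf 1 and calf 2. Leydig markers summed to 1477 to 2744 FPKM in the bulls, against 1395 and 1132 FPKM. In such whole-tissue RNA, fewer cells of a type and less RNA per cell cannot be told apart.

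The comparison of bulls with calves asks how the RNA of each subunit differs between the mature and the immature testis. PPP1CC rose and PPP1CB and PPP3R1 fell in the bulls, while PPP3CA, PPP3CB, PPP3CC and PPP1CA did not pass the test in either direction. The test was limma on log2(FPKM + 1), and a gene was called where its adjusted p was under 0.05 and its level differed by 1 or more on the log2 scale. Among all 18115 genes tested, 45.3% were called, 35.7% higher and 9.61% lower in the bulls. Of the 7 subunits, 1 was called higher and 2 lower. Without calf 3, 1 was called higher and 1 lower, against 51.6% called among the 19848 genes then tested, 37.7% higher and 13.9% lower.

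The scaling of the libraries bears on these directions. All genes tested had a median log2 fold change of 0.43, without calf 3 it was 0.50, and after quantile normalization it was -0.26. Of all calls, 78.8% were higher in the bulls as deposited and 45.8% after quantile normalization. The median of the 7 subunits was -0.95 as deposited and -1.51 after quantile normalization, when PPP1CC was called higher and 5 others, without PPP3CC, lower, against 46.2% of all genes called, 21.1% higher and 25.1% lower. Log2 fold changes less the median of all genes moved less, from 1.74 to 1.82 for PPP1CC, from -1.79 to -1.75 for PPP1CB and from 0.12 to 0.15 for PPP3CC.

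**Figure D1:**
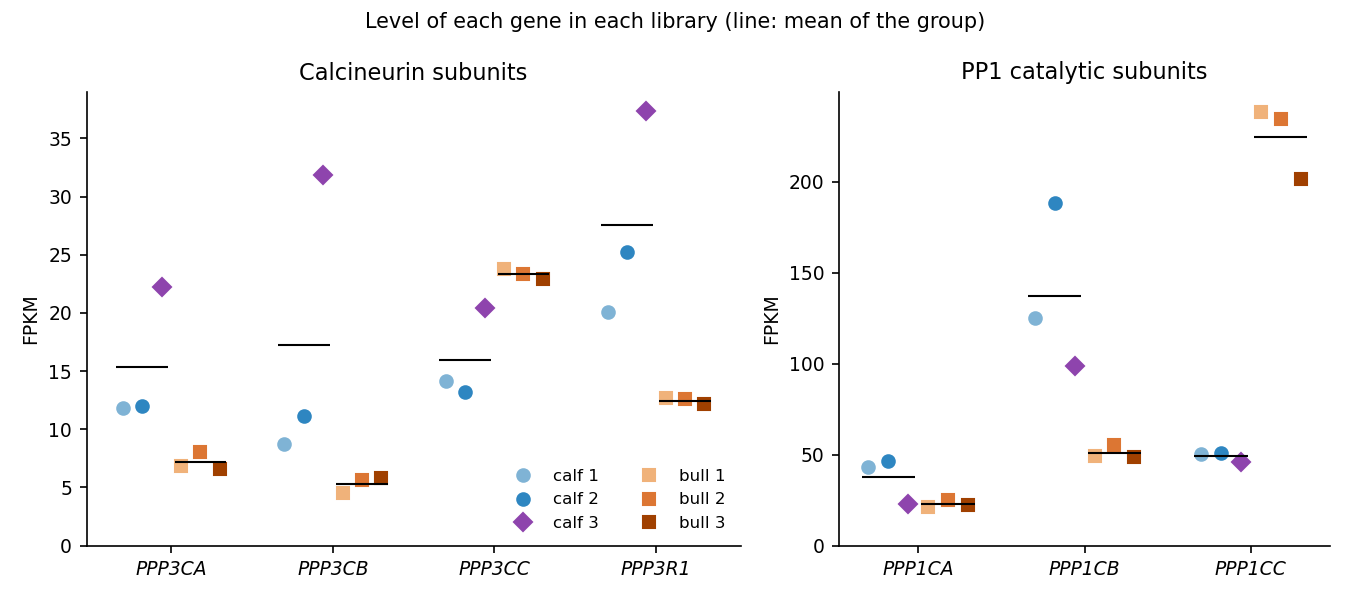
Level of each subunit (FPKM, linear axis from 0) in each library, with calcineurin subunits on the left and PP1 catalytic subunits on the right. Points are single libraries, with calf 3 as a purple diamond, and lines are group means. PPP1CC lay at 45.8 to 50.8 FPKM in the calves and 201 to 238 FPKM in the bulls, and calf 3 held the highest value of PPP3CA, PPP3CB and PPP3R1.

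Among the calcineurin A subunits, PPP3CC (ENSBTAG00000020133, chr8:69756418-69835876) was at 14.1, 13.2 and 20.4 FPKM in calf 1, calf 2 and calf 3 and at 23.75, 23.3 and 22.9 FPKM in the bulls. Every bull lay above every calf, and calf 3 was the nearest to the bulls. Its log2 fold change was 0.55 (SE 0.20, adjusted p = 0.0556) and did not pass. Without calf 3 it was 0.73 (SE 0.096, adjusted p = 0.000866), still under the fold needed for a call. With libraries also rescaled to a common sum it was called, at 1.22 (adjusted p = 0.00011), and after quantile normalization of all libraries it turned to -0.11 (adjusted p = 0.662).

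PPP3CA (ENSBTAG00000016005, chr6:23429083-23767842) was at 11.8, 11.97 and 22.2 FPKM in the calves and 6.86, 8.04 and 6.59 FPKM in the bulls. Its groups did not overlap, and calf 3 was 1.87 times the mean of calf 1 and calf 2. The log2 fold change was -0.95 (SE 0.27, adjusted p = 0.0275), just under the fold needed for a call, and -0.66 (adjusted p = 0.00417) without calf 3. It was called without calf 1 (-1.09) and without calf 2 (-1.08). An unnamed locus, XLOC_206898, overlaps the gene row by 14472 bases and was listed at 0 in every calf and at 1.91, 1.33 and 1.61 FPKM in the bulls. Of the PPP3CA transcripts, only PPP3CA-OT1 (chr6:23429083-23479064) reaches that stretch, and the others start at 23444708 or further on.

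PPP3CB (ENSBTAG00000019525, chr28:29426059-29473891) was at 8.72, 11.2 and 31.9 FPKM in the calves and 4.55, 5.64 and 5.80 FPKM in the bulls. Calf 3 was 3.20 times the mean of the other calves, the widest such gap among the subunits. On the log2 scale the difference was -1.32 (SE 0.47, adjusted p = 0.0544), and it was -0.79 (SE 0.17, adjusted p = 0.00601) without calf 3, neither of which passed. Without calf 1 it was called (-1.67, adjusted p = 0.0327).

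PPP3R1 (ENSBTAG00000010619, chr11:66604007-66667996), the B subunit of most tissues, fell in the bulls. It was at 20.04, 25.3 and 37.3 FPKM in the calves and at 12.7, 12.6 and 12.2 FPKM in the bulls, so that the lowest calf was above the highest bull. With all libraries the log2 fold change was -1.04 (SE 0.24, adjusted p = 0.0121). The call was lost without calf 3 (-0.80, adjusted p = 0.00197), without bull 3 (-1.02, adjusted p = 0.0507), with libraries rescaled to a common sum (-0.85, adjusted p = 0.175) and with array weights (-0.81).

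PPP1CC (ENSBTAG00000011198, chr17:54567784-54586904) rose most among the subunits. Its level was 50.5, 50.8 and 45.8 FPKM in the calves and 238, 234 and 201 FPKM in the bulls, 4.58 times higher by the means. In contrast to the calcineurin genes, calf 3 lay close to the other calves, at 0.903 times their mean. Its log2 fold change was 2.17 (SE 0.16, adjusted p = 0.000107), and it was 2.12 without calf 3 and 1.56 after quantile normalization, past the threshold each time.

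PPP1CB (ENSBTAG00000012447, chr11:70976071-71012355), the PP1 subunit that also serves myosin phosphatase, moved the opposite way. Its level was 125, 188 and 98.8 FPKM in the calves and 49.3, 55.1 and 48.6 FPKM in the bulls, and the groups were far apart. The log2 fold change was -1.36 (SE 0.26, adjusted p = 0.00576), and it was -1.57 without calf 3 and -2.01 after quantile normalization, called each time.

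PPP1CA (ENSBTAG00000012146, chr29:45292432-45295929), the third PP1 catalytic gene, was at 43.2, 46.5 and 23.2 FPKM in the calves and at 21.2, 25.0 and 22.5 FPKM in the bulls. Only calf 3 lay among the bulls, at 0.517 times the mean of the other calves. A log2 fold change of -0.64 (SE 0.29, adjusted p = 0.108) did not pass. Without calf 3 it was -0.94 (SE 0.11, adjusted p = 0.000545), still under the fold needed. The neighbouring RAD9A overlaps PPP1CA by 385 bases and was at 1.62 to 2.58 FPKM over the 6 libraries.

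The groups did not overlap for 6 of the 7 subunits, which was the case for 67.4% of all genes tested. Every bull was above every calf for PPP3CC and PPP1CC, and below for PPP3CA, PPP3CB, PPP3R1 and PPP1CB. Over all genes, the shares were 46.1% above and 21.3% below.

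**Figure D2:**
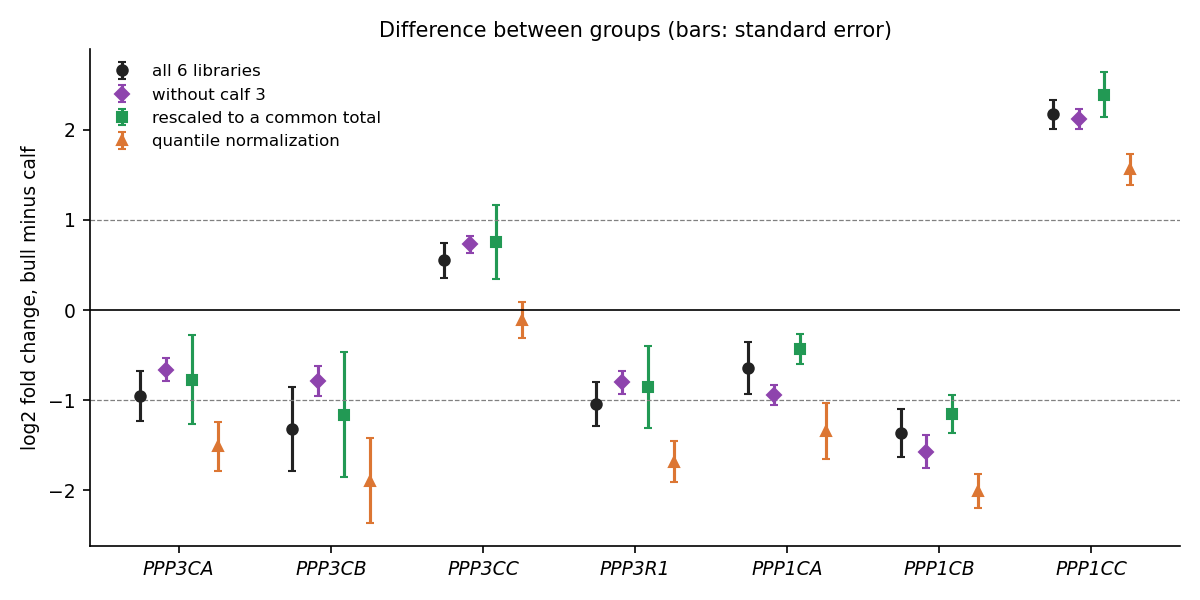
Log2 fold change of each subunit, bull minus calf, on the log2(FPKM + 1) scale, with standard errors as bars and the fold needed for a call as dashed lines. Black circles are all 6 libraries, purple diamonds leave out calf 3, green squares are libraries rescaled to a common sum and orange triangles are quantile normalized. PPP1CC stayed above and PPP1CB below the dashed lines in all 4 settings, and PPP3CC lay at -0.11 after quantile normalization.

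The make-up of each enzyme family was then compared as shares of its summed FPKM, which a single scaling factor per library leaves as they are. PPP3CC made up 40.7%, 36.35% and 27.4% of the calcineurin A RNA in the calves and 67.6%, 63.0% and 64.9% in the bulls. The means were 34.8% ± 6.77 and 65.2% ± 2.27 (SD, n = 3), and the exact permutation test gave p = 0.1 (two-sided), the smallest value that 3 against 3 libraries allow. Without calf 3 the difference was 26.6 percentage points instead of 30.3. The summed calcineurin A level differed less, at 34.6, 36.4 and 74.5 FPKM in the calves and 35.2, 37.0 and 35.3 FPKM in the bulls (exact permutation p = 0.7), and only calf 3 stood out.

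The share of PPP3CA was 29.8% to 34.1% in the calves and 18.6% to 21.7% in the bulls, and that of PPP3CB was 25.2% to 42.8% and 12.9% to 16.4%. Both shares had groups without overlap. The B subunit was set against the A subunits in the same way. PPP3R1 stood at 0.579, 0.695 and 0.501 per FPKM of calcineurin A in the calves and at 0.361, 0.340 and 0.344 in the bulls (means 0.592 ± 0.0973 and 0.348 ± 0.0113, SD, n = 3, exact permutation p = 0.1). This ratio covers PPP3R1 alone, since PPP3R2 was not analysed.

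Within PP1, PPP1CC made up 23.1%, 17.8% and 27.3% of the RNA in the calves and 77.2%, 74.5% and 73.9% in the bulls. The means were 22.7% ± 4.76 and 75.2% ± 1.72 (SD, n = 3, exact permutation p = 0.1), a difference of 52.5 percentage points, and of 54.7 without calf 3. PPP1CB held the larger part in the calves, 57.1% to 65.9%, and 16.0% to 17.8% in the bulls, so the 2 genes changed places in rank. PPP1CA went from 13.8% to 19.8% in the calves to 6.87% to 8.24% in the bulls. The summed PP1 level was 219, 286 and 168 FPKM in the calves and 309, 314 and 272 FPKM in the bulls, with groups that overlapped (exact permutation p = 0.2).

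**Figure D3:**
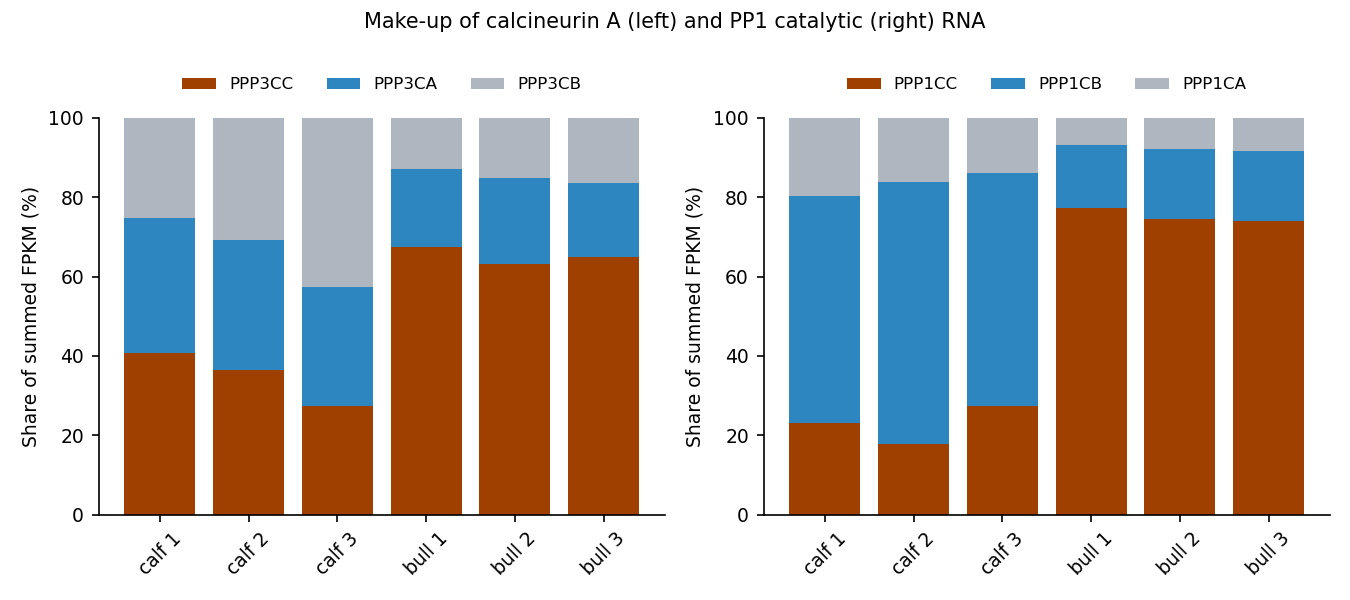
Share of each gene in the summed FPKM of its family (%, axis from 0), with 1 bar per library, for calcineurin A on the left and PP1 on the right. PPP3CC filled 27.4% to 40.7% of the calf bars and 63.0% to 67.6% of the bull bars, and PPP1CC 17.8% to 27.3% and 73.9% to 77.2%.

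In level, the order in every calf library was PPP1CB, PPP1CC, PPP1CA, and in every bull library PPP1CC, PPP1CB, PPP1CA. The ranges of neighbours in this order did not overlap in the bulls. In the calves, the ranges of PPP1CC (45.8 to 50.8 FPKM) and PPP1CA (23.2 to 46.5 FPKM) did overlap. The calcineurin A order was PPP3CC, PPP3CA, PPP3CB in 5 libraries and PPP3CB, PPP3CA, PPP3CC in calf 3. In the bulls, PPP3CC (22.9 to 23.75 FPKM) and PPP1CA (21.2 to 25.0 FPKM) lay at overlapping levels.

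The transcript table shows which transcripts carry these values. The 7 genes had 20 transcripts, of which 9 had enough signal to be tested, and 2 were called higher and 2 lower in the bulls. Among all 23212 transcripts tested, 44.2% were called, 34.8% higher and 9.37% lower, and 64.9% had groups without overlap, 44.1% with the bulls above and 20.8% with the bulls below. Without calf 3, 3 of the 4 calls remained and that of PPP3R1-201 was lost, beside 47.2% called of 27415 tested, 34.2% higher and 13.0% lower.

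PPP1CC had 2 transcripts with more than traces of signal. PPP1CC-201 (ENSBTAT00000057594, chr17:54567784-54586847) was at 49.8, 49.6 and 44.7 FPKM in the calves and 164, 165 and 143 FPKM in the bulls, with a log2 fold change of 1.69 (SE 0.16, adjusted p = 0.000331, and 0.98, under the fold needed, after quantile normalization). PPP1CC-202 (ENSBTAT00000081750, chr17:54568104-54586904) was at 0.744, 1.18 and 1.01 FPKM in the calves and 74.3, 69.2 and 57.9 FPKM in the bulls. The second transcript was thus near 1 FPKM in every calf and at 57.9 FPKM or more in every bull. Its log2 fold change was 5.11 (SE 0.18, adjusted p = 9.69e-06), and it was 5.12 without calf 3.

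The share of PPP1CC-202 in the level of its gene was 1.47%, 2.32% and 2.20% in the calves and 31.2%, 29.6% and 28.7% in the bulls. The difference of 27.8 percentage points had an exact permutation p of 0.1 (0.237 after Benjamini-Hochberg adjustment over the transcript shares), the lowest the design allows. PPP1CC-201 kept 68.8% to 71.3% of the gene in the bulls. The tables do not say which of these transcripts encodes PP1 gamma-1 or PP1 gamma-2.

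**Figure D4:**
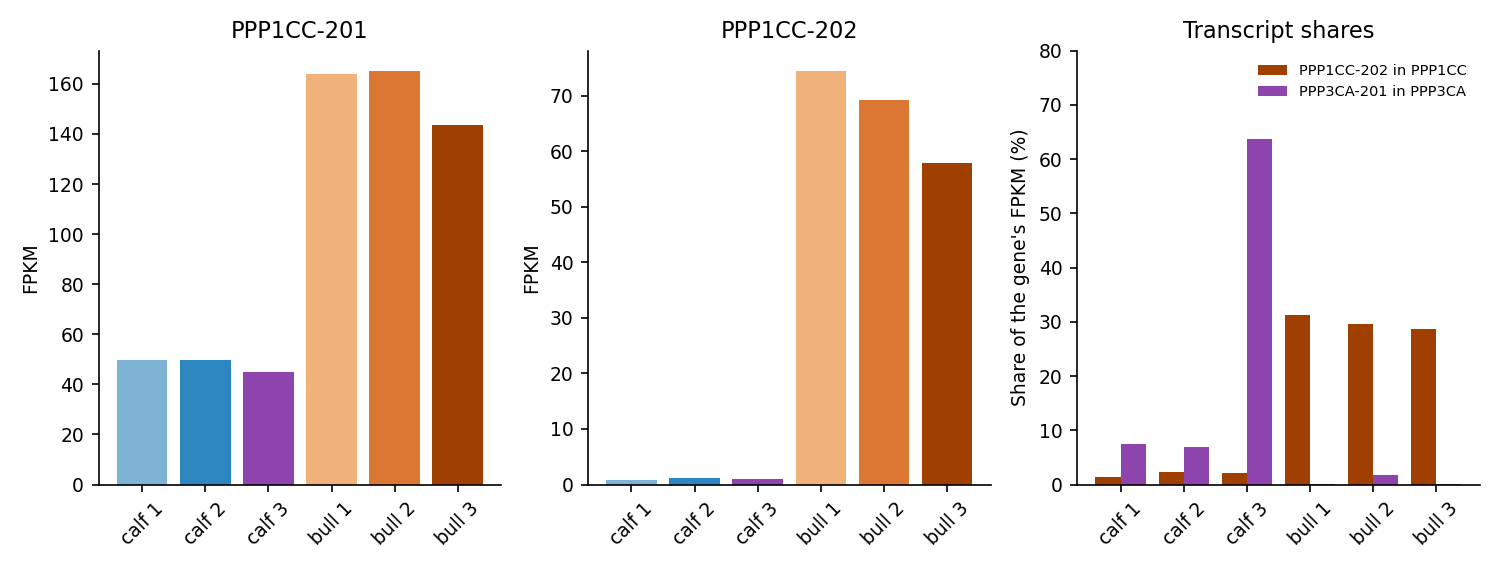
Levels of PPP1CC-201 and PPP1CC-202 (FPKM, axes from 0) and the share of PPP1CC-202 and PPP3CA-201 in their genes (%), by library. PPP1CC-202 made up 28.7% to 31.2% of its gene in the bulls and 1.47% to 2.32% in the calves, and PPP3CA-201 reached 63.7% of its gene in calf 3 only.

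PPP3CA showed a split of another kind. PPP3CA-202 carried 90.6%, 90.2% and 32.4% of the gene in the calves and 92.6% to 94.9% in the bulls. PPP3CA-201 was at 14.2 FPKM in calf 3, 63.7% of the gene, against 0.889 and 0.819 FPKM in calf 1 and calf 2 and at most 0.143 FPKM in the bulls. The excess of PPP3CA in calf 3 lay in PPP3CA-201, while PPP3CA-202 was at 7.20 FPKM there and at 10.7 and 10.8 FPKM in the other calves.

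The other genes rested mainly on 1 transcript each. PPP1CB-201 held 99.3% to 99.6% of PPP1CB, PPP3R1-201 98.3% to 99.9% of PPP3R1 and PPP3CC-201 98.8% to 100% of PPP3CC, and PPP1CA had a single transcript. PPP3CB was spread over more, with PPP3CB-201 at 63.8% to 83.1% in the calves and 67.5% to 83.2% in the bulls, so that its groups overlapped.

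Partners and relatives of the enzymes were read from lists of known pathway genes. CALM2 and CALM3, which encode the calcium sensor calmodulin that activates calcineurin, rose in the bulls. CALM2 was at 197, 238 and 432 FPKM in the calves and 749, 818 and 737 FPKM in the bulls (log2 fold change 1.49, adjusted p = 0.0141). CALM3 was at 59.9, 64.6 and 215 FPKM against 327, 271 and 294 FPKM (1.64, adjusted p = 0.0357). Calf 3 was the highest calf for both.

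Without calf 3, the log2 fold change was 1.82 for CALM2 and 2.24 for CALM3, both called. The call of CALM2 was lost without any 1 of the bulls (log2 fold change 1.44 to 1.52, adjusted p from 0.0504 to 0.0583). That of CALM3 was lost without calf 1, calf 2 or any 1 of the bulls (1.32 to 1.71, adjusted p from 0.0939 to 0.115). It was also lost with libraries rescaled to a common sum (1.86, adjusted p = 0.0817), under median of ratios scaling (1.5, adjusted p = 0.051), after quantile normalization (1.16, adjusted p = 0.113) and without the filter on low values (1.64, adjusted p = 0.0573). Both genes encode the same protein.

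Of 15 calcineurin regulators and anchors, 14 had a row and 13 were tested, of which 3 rose and 1 fell, with 9 not called and a median of 0.79 against 0.43 over all genes, of which 35.7% were called higher and 9.61% lower. After quantile normalization 2 of the list rose and 3 fell, against 21.1% and 25.1%. TESC, a calcium-binding protein related to the B subunit, was at 5.61, 7.57 and 0.684 FPKM in the calves and 31.9, 32.0 and 23.7 FPKM in the bulls (log2 fold change 2.71, SE 0.62, adjusted p = 0.0113, and 1.99 without calf 3). CHP1, which resembles the B subunit and inhibits calcineurin, was at 9.54, 11.0 and 22.1 FPKM against 46.5, 40.8 and 45.3 FPKM (1.66, adjusted p = 0.0054, and 0.97, under the fold needed, after quantile normalization). MYOZ2, a calcineurin-binding protein known from the muscle Z-disc, was at 2.19, 1.83 and 3.36 FPKM against 11.7, 8.81 and 9.40 FPKM (1.68, adjusted p = 0.00135). In all 3 the bulls lay above every calf, as they did for 46.1% of all genes tested, called or not. CHP1 had a log2 fold change of 2.004 and MYOZ2 of 1.86 once calf 3 was left out.

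RCAN1, a feedback inhibitor of calcineurin, fell, from 3.60, 4.42 and 11.3 FPKM in the calves to 1.02, 0.834 and 1.17 FPKM in the bulls (log2 fold change -1.75, SE 0.39, adjusted p = 0.0102, and adjusted p = 0.0569 with libraries rescaled to a common sum). Without calf 3 it was -1.32 for RCAN1. RCAN2, another member of that inhibitor family, was at 1.83, 6.61 and 73.9 FPKM against 0.316, 0.194 and 0.666 FPKM. Its log2 fold change was -3.09 (adjusted p = 0.0645) with calf 3, which stood far above the rest, and -1.75 (adjusted p = 0.0108) without it. RCAN2 was below 1 FPKM in every bull and entered the test through the calves alone, so the size of its fold change depends on the pseudocount. RCAN3 was at 2.58 to 3.32 FPKM in the calves and 2.58 to 6.08 FPKM in the bulls (0.46, adjusted p = 0.227, and -0.17 after quantile normalization). Without calf 3, 4 of the 13 genes of the list tested rose and 3 fell, against 37.7% and 13.9% of all genes. SPATA33, a sperm anchor of calcineurin, had no row.

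Of the 9 calcineurin substrates, the NFAT and CRTC proteins with TFEB and DNM1L, none was called higher by limma and 1 was called lower, and the list had a median of -0.34. Over all genes, 35.7% were called higher and 9.61% lower. Another 3 had a limma adjusted p under 0.05 but less than the fold needed. CRTC3 was higher (log2 fold change 0.68, adjusted p = 0.0392), and NFATC1 (-0.90, adjusted p = 0.00135) and CRTC2 (-0.52, adjusted p = 0.0311) were lower. The share of all genes at this adjusted p alone was not counted. NFATC4, which moves to the nucleus when calcineurin removes its phosphates, was at 2.87, 2.80 and 1.995 FPKM in the calves and 0.538, 0.695 and 0.490 FPKM in the bulls (log2 fold change -1.17, SE 0.15, adjusted p = 0.00112, and -1.29 without calf 3). NFATC4 and NFATC1 were below 1 FPKM in every bull and entered the test through the calves alone, so the sizes of their fold changes depend on the pseudocount. After quantile normalization 5 of the 9 were called lower, against 25.1% of all genes.

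Of 44 PP1 regulatory subunits, 43 had a row and 35 were tested, of which 11 rose and 2 fell, against 35.7% and 9.61% of all genes, with a median of 0.22 against 0.43. PPP1R32 was at 0, 0.0463 and 0.247 FPKM in the calves and 80.9, 91.4 and 90.3 FPKM in the bulls (log2 fold change 6.34, SE 0.16, adjusted p = 3.59e-06). PPP1R42 was at 1.297, 1.23 and 7.36 FPKM against 121, 142 and 104 FPKM (5.13, SE 0.54, adjusted p = 0.000432). PPP1R32 was below 1 FPKM in every calf and entered the test through the bulls alone, so the size of its fold change depends on the pseudocount. PPP1R42 was highest in calf 3 among the calves. Without calf 3 the log2 fold changes were 6.43 and 5.76, and after quantile normalization 5.39 and 4.44.

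PPP1R2, known as inhibitor-2 of PP1, was at 17.3, 18.8 and 25.3 FPKM in the calves and 175, 188 and 181 FPKM in the bulls (log2 fold change 3.104, SE 0.19, adjusted p = 4.93e-05). PPP1R11, known as inhibitor-3, was at 6.77, 3.84 and 13.7 FPKM against 29.7, 28.1 and 25.8 FPKM (1.81, SE 0.40, adjusted p = 0.0101). PPP1R7, the leucine-rich subunit SDS22, was at 16.5, 20.4 and 22.0 FPKM against 44.9, 39.1 and 40.5 FPKM (1.05, SE 0.16, adjusted p = 0.00232). The 3 are known binding partners of PP1 in sperm, and without calf 3 their log2 fold changes were 3.26, 2.23 and 1.13.

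The call of PPP1R7 was lost without calf 1 (log2 fold change 0.94), without bull 1 (0.99), under median of ratios scaling (0.91) and after quantile normalization (0.30, adjusted p = 0.137). PPP1R36, a testis-enriched subunit, was at 1.23, 2.75 and 0.781 FPKM in the calves and 15.8, 13.5 and 20.7 FPKM in the bulls (2.82, SE 0.33, adjusted p = 0.000673, and 2.59 without calf 3).

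Both PP1 regulators that fell had groups without overlap. Among all genes tested, called or not, 21.3% had every bull below every calf. PPP1R1A, known as inhibitor-1 and active once phosphorylated by protein kinase A, was at 17.05, 27.3 and 10.2 FPKM in the calves and 4.26, 2.51 and 3.01 FPKM in the bulls (log2 fold change -2.09, SE 0.37, adjusted p = 0.00406, and -2.43 without calf 3). PPP1R15B, which directs PP1 to the translation factor eIF2-alpha, was at 17.8, 19.2 and 25.4 FPKM against 8.57, 9.85 and 8.24 FPKM (-1.13, SE 0.19, adjusted p = 0.00284), and the call was lost without calf 3 (-0.98), with array weights (-0.98) and with libraries rescaled to a common sum (-0.94, adjusted p = 0.0904). Without calf 3, 12 of 36 PP1 regulators rose and 3 fell, against 37.7% and 13.9% of all genes. After quantile normalization of all libraries 5 rose and 9 fell, against 21.1% and 25.1%.

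Of the 6 other catalytic subunits of the same phosphatase family that were tested, 3 rose and none was lower by limma, also at an unadjusted p under 0.05, against 35.7% and 9.61% of all genes, and the median was 0.45. After quantile normalization 2 rose and 2 fell, against 21.1% and 25.1%, and the median was -0.19. PPEF1, a calcium-binding phosphatase, was at 1.44, 1.70 and 1.67 FPKM in the calves and 9.29, 10.8 and 11.2 FPKM in the bulls (log2 fold change 2.13, adjusted p = 0.000127). PPP4C was at 24.9, 30.3 and 16.4 FPKM against 113, 90.8 and 86.7 FPKM (2.01, adjusted p = 0.00102). PPP6C was at 9.75, 10.6 and 13.8 FPKM against 23.9, 25.7 and 23.2 FPKM (1.04, adjusted p = 0.003), and its call was lost without calf 1 (0.94), without bull 2 (just under the fold needed), under median of ratios scaling (0.90) and after quantile normalization (0.42, adjusted p = 0.0796). PPP2CA and PPP2CB, the catalytic subunits of PP2A, were not called, at -0.58 (adjusted p = 0.0959) and -0.62 (adjusted p = 0.102), and were the 2 called lower after quantile normalization, at -1.37 (adjusted p = 0.00474) and -1.23 (adjusted p = 0.0086). Without calf 3 the log2 fold changes of PPEF1, PPP4C and PPP6C were 2.15, 1.77 and 1.17.

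**Figure D5:**
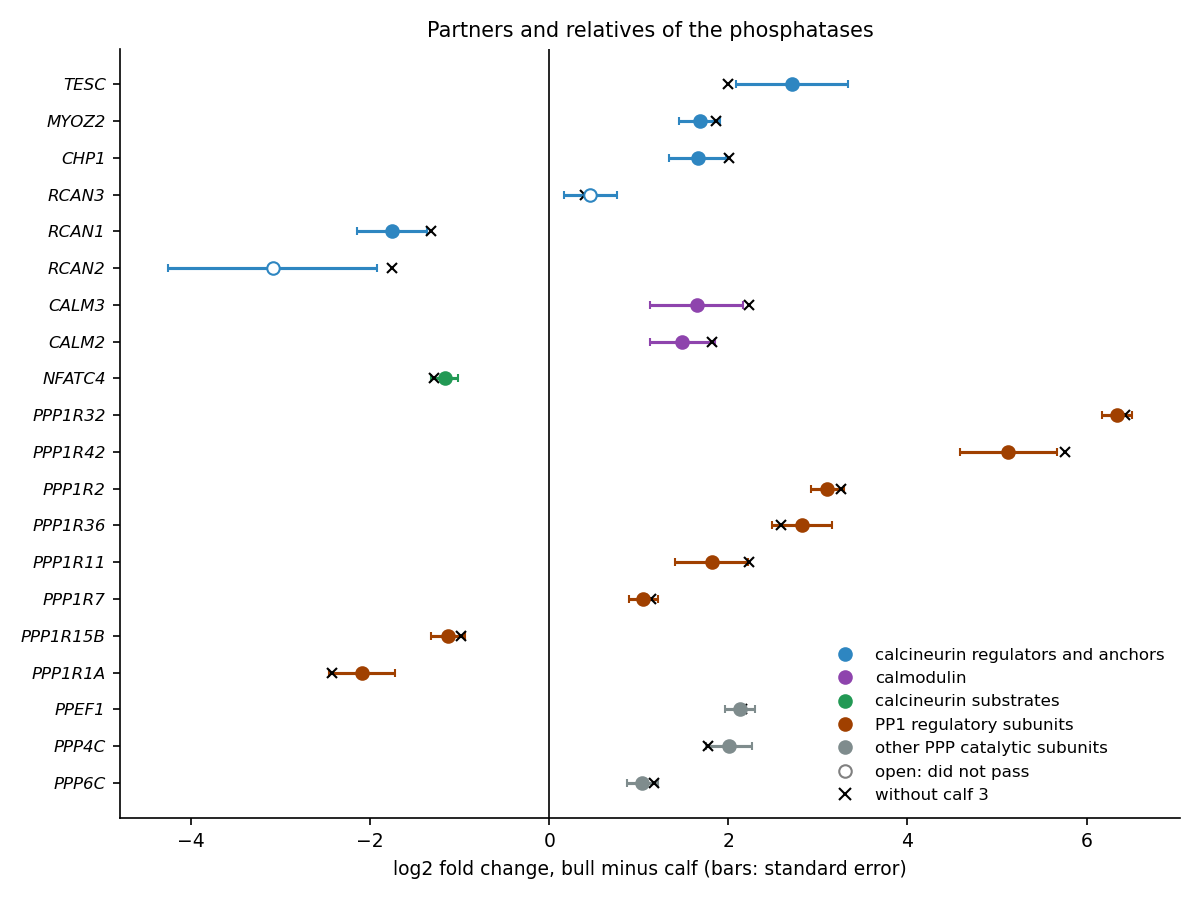
Log2 fold change, bull minus calf, of the named partners and relatives on the log2(FPKM + 1) scale, coloured by list. Filled points passed the test with all 6 libraries, open points did not, bars are standard errors and crosses are values without calf 3. PPP1R32 (6.34) and PPP1R42 (5.13) lay farthest to the right, and RCAN2 (-3.09, open) farthest to the left.

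The profiles of PPP1CC and PPP3CC over the 6 libraries were set against those of 13392 named genes tested, as the root mean square difference of centred log2(FPKM + 1). The nearest to PPP1CC was C21H14orf28 (difference 0.0227), at 3.05, 2.95 and 2.63 FPKM in the calves and 16.9, 16.9 and 14.5 FPKM in the bulls. STK25, a kinase, followed at 0.0408 and PTPA, an activator of the phosphatase PP2A, at 0.0733. Nearest to PPP3CC were OSBPL11 (0.0569), RABGEF1 (0.0571) and CBARP (0.0626). Without calf 3, C21H14orf28 and STK25 were still among the 3 nearest to PPP1CC, joined by INCENP (0.0209), while the 3 nearest to PPP3CC were replaced by SDR42E2, KCTD4 and RNF169 (0.0359 to 0.0364). KCTD4 was at 6.56 FPKM in calf 3 and at 0.519 to 1.58 FPKM elsewhere. This list is a description of likeness over 6 libraries.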

How the data were processed

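Per the study's methods, the authors removed low-quality and ribosomal reads (Bowtie2), mapped the rest with TopHat2 and assembled transcripts with StringTie. They deposited FPKM values of genes and transcripts, 1 column per library. The methods name Cuffdiff and Ballgown for circRNAs. Whether they made the FPKM of genes, the strand setting for these strand-specific libraries and the division of reads between paralogs are not given in the sources used here. The methods name a UMD assembly, but the deposited positions follow an ARS-UCD assembly and are given as such.

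The members, the pathway lists and the tests were chosen with earlier results of these data known. Values were transformed to log2(FPKM + 1), so that fold changes of low genes are understated, and genes or transcripts at 1 FPKM or more in at least 3 of the 6 libraries (2 where 1 was left out) were fitted with limma 3.58.1 in R 4.3.3, with an empirical Bayes trend and Benjamini-Hochberg adjustment over all features. The procedure was tested on simulated data, in which 200 genes or transcripts were changed by 2 on the log2 scale. With the spread of all 6 libraries, 119 of the genes and 105 of the transcripts were recovered. With the spread without calf 3, these numbers were 184 and 172. In the simulation, many changes of that size were thus missed at the spread with calf 3. The simulation gave both groups the same spread and kept 6 libraries each time, whereas in these data calf 3 alone stood apart. Its recovery therefore does not carry over directly to single subunits, and a subunit that did not pass may still differ. Shares and ratios were compared by exact permutation over 20 labelings. From each list, the up to 3 largest called rises and falls were named, plus 12 genes named whatever their result (1 of them is not reported here), and the 3 genes with profiles nearest to PPP3CC and PPP1CC. The planned share of PPP3R2 could not be made, and the ratio uses PPP3R1 alone. The alternatives changed replicates, pseudocount (0.1, 0.5), filter, scaling, weights, trend and replicate block, and 3 that combine a scaling with leaving out calf 3 were chosen after seeing the data. Low values did not recover whole reads (at most 3.63% of genes lay at the commonest ratio). With 1 library per animal, the limma p-values rest on the spread between these libraries, moderated across genes. With all 6 libraries, that spread includes the difference of calf 3 from the other calves. The exact permutation p-values rank the labelings and measure no spread.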

Additional observations from a re-analysis of the deposited data

How the results depend on the processing

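PPP1CC and PPP1CB kept their direction and their call under all 19 alternatives (log2 fold change 1.52 to 2.63 and -2.16 to -1.07). Leaving out 1 library at a time gave 1 to 4 subunits called lower (2 with all) and 1 to 2 of their transcripts called lower (2 with all). The extremes for genes were 4 without calf 1 and 1 without calf 3 or bull 3, and for transcripts 1 without calf 3 or any 1 of the bulls. Over all genes, 1710 were called lower without calf 1, 2767 without calf 3 and 1293 without bull 3, against 1741 with all libraries. Subunits called lower numbered 4 under median of ratios scaling and 5 under quantile normalization, and 1 both with libraries rescaled to a common sum and with array weights. Calls lower over all genes moved too, to 2133, 4538, 1151 and 2470 in these 4 settings in turn. With calf 3 left out as well, subunits called lower numbered 4, 5 and 1 under the 3 scalings in turn, beside 3606, 5653 and 1685 of all genes. With rescaling 2 subunits, PPP1CC and PPP3CC, were then called higher, beside 9238 of all genes. Under quantile normalization, 1 transcript was called higher and 6 lower, and 1 and 7 without calf 3, while 1 was called lower with rescaling, with or without calf 3, and with array weights. The pathway lists held 23 calls, and 38 with rescaling and without calf 3. Under quantile normalization PPP3CC turned to -0.11, PPP3CC-201 to -0.14 and RCAN3 to -0.17 (-0.16 without calf 3). With 1 library left out, the share difference ranged from -0.0809 to 0.606 percentage points for PPP3R1-201, from -1.93 to 7.72 for PPP3CB-201 and from -0.26 to 3.3 for PPP3CB-202, and changed sign within each range. The cause of these changes was not tested. The sources used here state no link between calves and bulls of the same number. Correlations of their deviations were 0.0246 to 0.0341, and each of the 3 calves and 3 bulls correlated best with its own number. What lies behind this was not tested. With the replicate block 1 subunit was called higher and 3 lower, which added PPP3CB (log2 fold change -1.32, adjusted p = 0.0467), over 6437 genes higher and 1691 lower in all, against 6474 and 1741. For shares and ratios the exact permutation test cannot go below p = 0.1 in this design, and the tables give no counts behind the FPKM.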

Other observations

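The unnamed locus XLOC_206898 (chr6:23429083-23443554) overlaps PPP3CA only where the transcript PPP3CA-OT1 extends the gene row. It was listed at 0 in all 3 calves and at 1.91, 1.33 and 1.61 FPKM in the bulls. PPP3CA-201 and PPP3CA-202, which carried most of PPP3CA, start at 23444708, outside this locus. Over PPP3CC, the entry ENSBTAG00000052118 (chr8:69817203-69820540) was at 1.39, 0.959 and 2.15 FPKM in the calves and 0.321, 0.238 and 0.416 FPKM in the bulls, and was too low to be tested. XLOC_239152, which spans PPP3CC, was at 0.572 to 1.36 FPKM in the calves and 1.68 to 2.36 FPKM in the bulls (log2 fold change 0.68, adjusted p = 0.0334, not called). These loci were seen after the values were known, and how reads were divided between overlapping entries is not given in the sources used here.

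Several PP1 regulators were far higher in calf 3 than in the other libraries, named here after their values were seen. PPP1R16B was at 46.2 FPKM in calf 3 and 0.740 to 2.90 FPKM elsewhere, PPP1R1B at 26.6 FPKM against 1.22 to 2.104 FPKM, and PPP1R14A at 160 FPKM against 13.3 to 37.5 FPKM. PHACTR3 was at 17.4 FPKM in calf 3 and 0.218 to 0.919 FPKM elsewhere. These values stand beside the brain markers of that library, and their part was not tested.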
